A study of Homo sapiens with 36 samples.

Results

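The genes of 10 heterogeneous nuclear ribonucleoproteins (hnRNPs) were examined as RNA targets in PAR-CLIP data on SCAF4 and SCAF8, nuclear proteins that bind the C-terminal domain of RNA polymerase II. The genes were HNRNPA1, HNRNPA2B1, HNRNPC, HNRNPD, HNRNPDL, HNRNPH1, HNRNPK, HNRNPL, HNRNPM and HNRNPU. A cluster, which is a stretch of RNA marked by 4SU crosslinks, was assigned to a gene when its midpoint lay on the gene's strand and within its body in GENCODE 44 on GRCh38. The 10 genes held 2318 of 278185 clusters in 18 lists, and 12711 genes held a cluster in at least 1 list.

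All samples came from HEK293 Flp-In T-REx, a human embryonic kidney line. Tagged forms of the proteins, FLAG-SCAF4 and FLAG-SCAF8, were each expressed in a line of their own from an integrated, doxycycline-inducible construct. Parental cells carried no tagged protein. The labels give overnight induction with 100 ng/mL doxycycline for the SCAF4 and SCAF8 cells, and the methods of the study state another dose and include the parental cells. Cells of all 3 lines took up 4SU, a photoreactive uridine, at 100 μM overnight and at 500 μM in a pulse of 2 h. Light of 365 nm at 2000 J/m2 then crosslinked RNA to protein. A FLAG IP and an input from the extract before the IP were made in 3 replicates per line. Here the IP of the parental line is called control IP. The lists thus fell into 6 groups of 3, and each combined the soluble and chromatin fractions of 36 libraries. Each line is a model of an ectopically expressed protein beside the cells' own SCAF4 and SCAF8. The study's methods call the replicates biological, and the labels do not say whether they were separate cultures. P-values measure the spread between these lists. The lists hold positions and no reads, so the depth is unknown, and absence of a cluster does not show absence of RNA. List lengths moved with the groups. IP lists of SCAF4 and SCAF8 held 18287 to 54404 clusters, inputs 4793 to 12493 and control IP lists 1621 to 9638. Replicate 1 of every group was sequenced with longer reads than the other replicates.

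hnRNPs coat nascent transcripts and help to decide which exons are joined, where RNA is cleaved and polyadenylated, and how long an mRNA lasts. Their own genes are transcribed at high levels in dividing cells, and several members lower their own output by promoting splice forms with premature stop codons or retained introns. Several of the genes carry highly conserved introns that hold such exons. PAR-CLIP marks the positions where a protein touched 4SU-labeled RNA, and input clusters mark abundant crosslinked RNA without a pull-down.

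Sites found in the IP lists and in no other list can be read as sequence. Overlapping clusters of the SCAF4 and SCAF8 IP lists were merged, and 119 merged regions in the 10 genes held clusters of at least 2 of 3 SCAF4 IP and at least 2 of 3 SCAF8 IP lists. No input and no control IP list had a cluster in 8 of them. Each IP list held more clusters than any input or control IP list, and the part of list length in this count was not tested. No such share is given here for regions elsewhere in the genome. The central 30 nt are shown for 7 of these 8 regions, which held clusters in IP lists alone. The letters are from GRCh38 on the transcribed strand, 5′ to 3′, in lower case. Capitals mark the short motifs searched, which were CGG or CGA, next CCAGC or CCAGG or GCAGC or GCAGG, and last CTCC or CACC.

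HNRNPA1 3′ UTR, exon 11, chr12:54286672-54286701, plus strand: gctactagtcttatcagctcttaaaaacag
HNRNPD intron 6, chr4:82356722-82356751, minus strand: tttaattatcctgaagtaaagatctttgct
HNRNPD intron 8, chr4:82354959-82354988, minus strand: GCAGGccctgtgtcgcgctgacttcaCGAt
HNRNPDL coding exon 5, chr4:82427224-82427253, minus strand: caacaaaaaggtggaagaggtgctGCAGCt
HNRNPL intron 1, chr19:38847664-38847693, minus strand: ccCTCCCTCCgttataccttcctcagaagc
HNRNPL intron 10 into exon 11, chr19:38837639-38837668, minus strand: cctgttttcttttgcagatctgCGAtgagc
HNRNPM coding exon 6, chr19:8465392-8465421, plus strand: gggaCCAGGtggcCCAGGaatgattactat

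The 7 regions measured 157 to 400 nt. By their midpoints 4 lay in introns, 2 in coding sequence and 1 in a 3′ UTR. Both HNRNPD intron regions lay at an exon of another annotated isoform. A midpoint does not place the whole region. The region printed as HNRNPD intron 6 also spans exons 6 and 7, and the HNRNPL region running into exon 11 spans that exon. Mean coverage of HNRNPD exon 7, intron 6 and exon 6 was 78.9%, 50% and 61.3% in SCAF4 IP. In SCAF8 IP it was 63.5%, 23.2% and 0. Intron 6 holds the printed bases, and clusters of 2 SCAF4 IP and 2 SCAF8 IP lists touched it. None of the SCAF8 IP lists covered 50% of this intron, and whether their clusters reached the printed bases is not given here. The 2 HNRNPL windows hold a pyrimidine tract, followed in the second by the AG and the first bases of exon 11. For contrast, the same length is shown from 4 regions of HNRNPH1, HNRNPK, HNRNPL and HNRNPU, which held clusters in all 18 lists. The region printed as HNRNPK intron 3 also spans exon 4. Inputs covered 88.8% to 100% of that exon and 5.39% to 31.1% of intron 3, so the printed bases need not lie in a cluster of every list.

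HNRNPH1 coding exon 2, chr5:179623115-179623144, minus strand: cgtaagagaCGAtgatgttgggcaCGGaag
HNRNPK intron 3, chr9:83977804-83977833, minus strand: ttggagacttcgctgctttctttgaaatgt
HNRNPL coding exon 3, chr19:38845940-38845969, minus strand: tttgtcaactactctaCCAGCcagaagatc
HNRNPU coding exon 11, chr1:244856042-244856071, minus strand: agcaatataaggaagaaagcaaaaaggctc

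The marked letters were searched in 100 nt around the midpoints of the 119 regions, on the transcribed strand only. CGG or CGA was present in 57.1% of the regions in hnRNP genes and in 69.5% of the 14784 such regions elsewhere in the genome. At least 1 of CCAGC or CCAGG or GCAGC or GCAGG was present in 36.1% and 42.8%, and CTCC or CACC in 28.6% and 50.1%. AATAAA, the hexamer of polyadenylation signals, was in 5.88% against 2.81%. Median T content was 29% in the hnRNP gene windows and 24% in the others, and median C content 17% and 22%. These shares are descriptions without a test, and base composition differed beside them.

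In plain numbers of clusters, the mean of each of the 10 genes was higher in IP of SCAF4 and SCAF8 than in the same lines' inputs or in control IP. That order was near general in these lists, since 94.9% of all 9389 genes tested had a higher mean in IP than in the same lines' inputs and 97.3% than in control IP. HNRNPL, whose protein binds CA-rich RNA and regulates splicing, held 18, 27 and 24 clusters in the SCAF4 IP lists and 24, 22 and 29 in the SCAF8 IP lists. Control IP lists held 13, 5 and 4 in this gene, and the 6 inputs of the FLAG lines, called own inputs here, held 8 to 15 with a median of 11. The IP lists thus did not overlap with either of the other groups. Of all genes tested, 24% lay above control IP without overlap. HNRNPDL, a paralog of HNRNPD, held 9, 16 and 12 clusters in SCAF4 IP, 10, 9 and 13 in SCAF8 IP, 3, 1 and 2 in control IP and 3 to 6 in own inputs, with a median of 5. It was the only other gene of the 10 whose IP lists lay wholly above its own inputs, which 11.7% of all genes tested did.

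HNRNPH1, whose protein binds G-rich RNA, had nearly the same number of clusters in IP and in inputs. The SCAF4 IP lists held 20, 22 and 19 clusters, the SCAF8 IP lists 20, 22 and 23, and the control IP lists 18, 8 and 16. Own inputs held 17 to 21 clusters with a median of 19. IP and own input lists overlapped, while the control IP lists all lay below the IP lists, as for 24% of all genes tested. Control IP replicate 2, with 2314 clusters over all genes, still held 8 of them in HNRNPH1.

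HNRNPU, also known as scaffold attachment factor A, held the most clusters, 497 over the 18 lists. These were 26, 40 and 31 in SCAF4 IP, 45, 33 and 47 in SCAF8 IP, 24, 5 and 5 in control IP and 15 to 44 in own inputs, with a median of 26.5. IP and input lists overlapped widely. HNRNPA2B1, a shuttling splicing regulator, held 19, 45 and 36 clusters in SCAF4 IP, 26, 33 and 38 in SCAF8 IP and 16, 3 and 6 in control IP. Its own inputs held 15 to 23 with a median of 19, so that SCAF4 IP replicate 1 lay among the inputs and every other IP list above them.

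The remaining 5 genes held fewer clusters. HNRNPC, whose protein forms tetramers on U-rich nascent RNA, had 17, 38 and 24 clusters in SCAF4 IP and 13, 9 and 18 in SCAF8 IP, against 5 to 23 in own inputs and 5, 2 and 0 in control IP. HNRNPA1, a splicing repressor, had 10 to 17 clusters in the IP lists, 6 to 12 in own inputs and 2 to 7 in control IP. HNRNPM, a regulator of alternative splicing, had 10 to 21, 2 to 11 and 0 to 5. HNRNPK, a KH-domain protein that binds C-rich RNA, had 7 to 15, 1 to 7 and 1 to 4. HNRNPD, also called AUF1, which binds AU-rich elements of mRNAs, had 5 to 13, 1 to 6 and 0 to 3. Every one of these 5 genes was above control IP in each IP list, as were 24% of all genes tested. In control IP no cluster was found for HNRNPC in replicate 3, nor for HNRNPD and HNRNPM in replicates 2 and 3. The other 7 genes had clusters in all 18 lists.

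**Figure D1:**
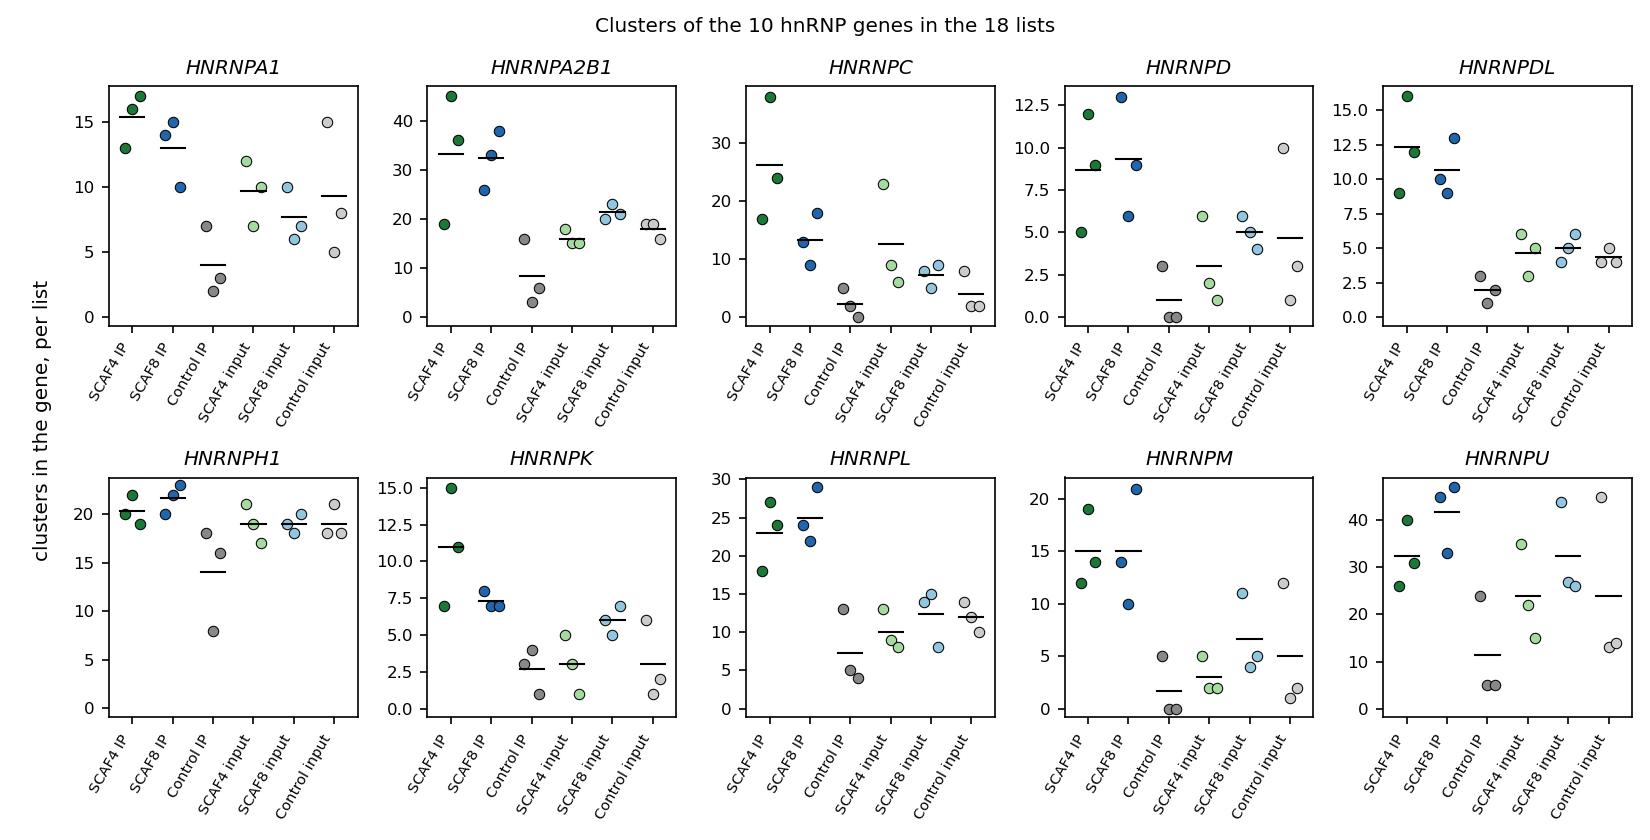
Number of clusters in each of the 10 hnRNP genes per list (points, 3 lists per group) with the mean of each group (bars); the vertical scale differs between genes. HNRNPH1 lies between 17 and 23 clusters in every SCAF4 IP, SCAF8 IP and input list, while HNRNPL and HNRNPDL have more clusters in each of the 6 SCAF4 and SCAF8 IP lists than any of the 6 inputs of those lines shows.

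The plot of numbers by gene was put to a test over lists. For each of the 9389 genes with a cluster in at least 3 of the 18 lists, the difference of means was compared over all 924 ways to divide the 12 lists, in an exact two-sided permutation test with Benjamini-Hochberg adjustment. The smallest possible p was 0.00216. On numbers that were not scaled to the length of the list, 6 of the 10 genes passed an adjusted p of 0.05 and were higher in IP, against 33.6% of all genes tested. HNRNPL (24 against 11.2 clusters per list) and HNRNPDL (11.5 against 4.83) each had an adjusted p of 0.0184 in this exact test. HNRNPM followed (15 against 4.83, adjusted p = 0.0284, exact test). HNRNPA1 (14.2 against 8.67), HNRNPA2B1 (32.8 against 18.7) and HNRNPK (9.17 against 4.50) each gave 0.0387. HNRNPD (9 against 4, 0.0563), HNRNPH1 (21 against 19, 0.118), HNRNPC (19.8 against 10, 0.131) and HNRNPU (37 against 28.2, 0.231) did not pass. This form of the test was chosen after the data had been seen.

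The planned measure was the number of clusters of a gene per 10000 clusters of the list, and on that measure the direction was the opposite. All 10 means were lower in IP than in own inputs, as were 34.0% of all genes tested. Together the 10 genes made up 46.0 to 90.8 per 10000 clusters in the IP lists, 100.6 to 228.3 in the control IP lists and 109.1 to 177.9 in the inputs of all 3 lines. The adjusted exact test called 3 of the 10 genes lower in IP, against 4.61% of all genes tested. It called none of the 10 higher, against 5.55% of all genes. Whether a member is higher or lower thus depended on the scaling, and the IP lists were longer than the inputs. The part of list length in either result was not tested.

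Per 10000 clusters, HNRNPH1 had 10.5, 4.04 and 5.59 in SCAF4 IP and 7.94, 12.0 and 5.54 in SCAF8 IP. Own inputs had 17.4 to 37.2 with a median of 21.5, so the groups did not overlap. The same held for HNRNPU below, and for 3.69% of all genes tested. The mean was 7.61 ± 3.14 (SD, n = 6) in IP and 25.1 ± 8.84 (SD, n = 6) in own inputs, 3.30-fold lower in IP (adjusted p = 0.0254, exact permutation test). On the unscaled numbers given above the IP mean was the higher of the 2. In replicate 1, with the longer reads, IP and input values were 10.5 and 17.9 for SCAF4 and 7.94 and 20.8 for SCAF8, in the same direction as the rest.

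HNRNPU showed the same order per 10000 clusters. It had 13.7, 7.35 and 9.13 in SCAF4 IP and 17.9, 18 and 11.3 in SCAF8 IP, against 26.1 to 48.1 in own inputs with a median of 30.6. The means were 12.9 ± 4.46 and 34.5 ± 8.86 (SD, n = 6 each), 2.68-fold lower in IP (adjusted p = 0.0254, exact permutation test), and again lower only relative to list length. HNRNPA2B1 had 10.0, 8.27 and 10.6 in SCAF4 IP, 10.3, 18 and 9.16 in SCAF8 IP and 15.4 to 31.3 in own inputs. Its means were 11.1 ± 3.52 and 23.9 ± 5.73 (SD, n = 6 each), 2.16-fold lower in IP with an adjusted p of 0.0426 in the exact test, although SCAF8 IP replicate 2 lay above the lowest input. Unscaled, HNRNPA2B1 was called higher in IP.

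For the other genes the adjusted exact p per 10000 clusters was 0.0727 for HNRNPA1, HNRNPDL and HNRNPL, 0.124 for HNRNPC, 0.152 for HNRNPK, 0.215 for HNRNPD and 0.966 for HNRNPM. HNRNPM was the gene with the closest means, 5.00 ± 1.03 in IP and 5.63 ± 3.19 in own inputs (SD, n = 6 each). The median difference of the 10 genes was −5.82 per 10000, beside 0.181 over all genes tested. Among 15 other hnRNP-family genes that were tested, 6 were called lower and 13 had a lower mean, and among 10 SRSF genes, which encode SR splicing factors, the counts were 4 and 10. When each IP list was paired with the input of the same line and number, HNRNPH1, HNRNPU, HNRNPA2B1 and HNRNPL were lower in all 6 pairs (p = 0.0312, the smallest that exact sign flips can give), as were 6.12% of all genes tested. The adjusted p was then 0.199 for these genes and no gene of the 10 was called, 0.199 being the smallest adjusted value that any gene reached. With clusters of exons alone, chosen as an alternative after seeing the data, 2 genes were called lower per 10000 clusters (HNRNPA2B1 and HNRNPU, adjusted exact p = 0.0335 each), against 2.13% of all genes tested. With intron clusters alone no gene was called, nor were any of all genes (0%). With all 9 inputs of the 3 lines, HNRNPA1 (adjusted p = 0.0242) and HNRNPL (adjusted p = 0.0363) also passed the exact test, which made 5 of the 10 genes called lower, against 4.89% of all genes tested.

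**Figure D2:**
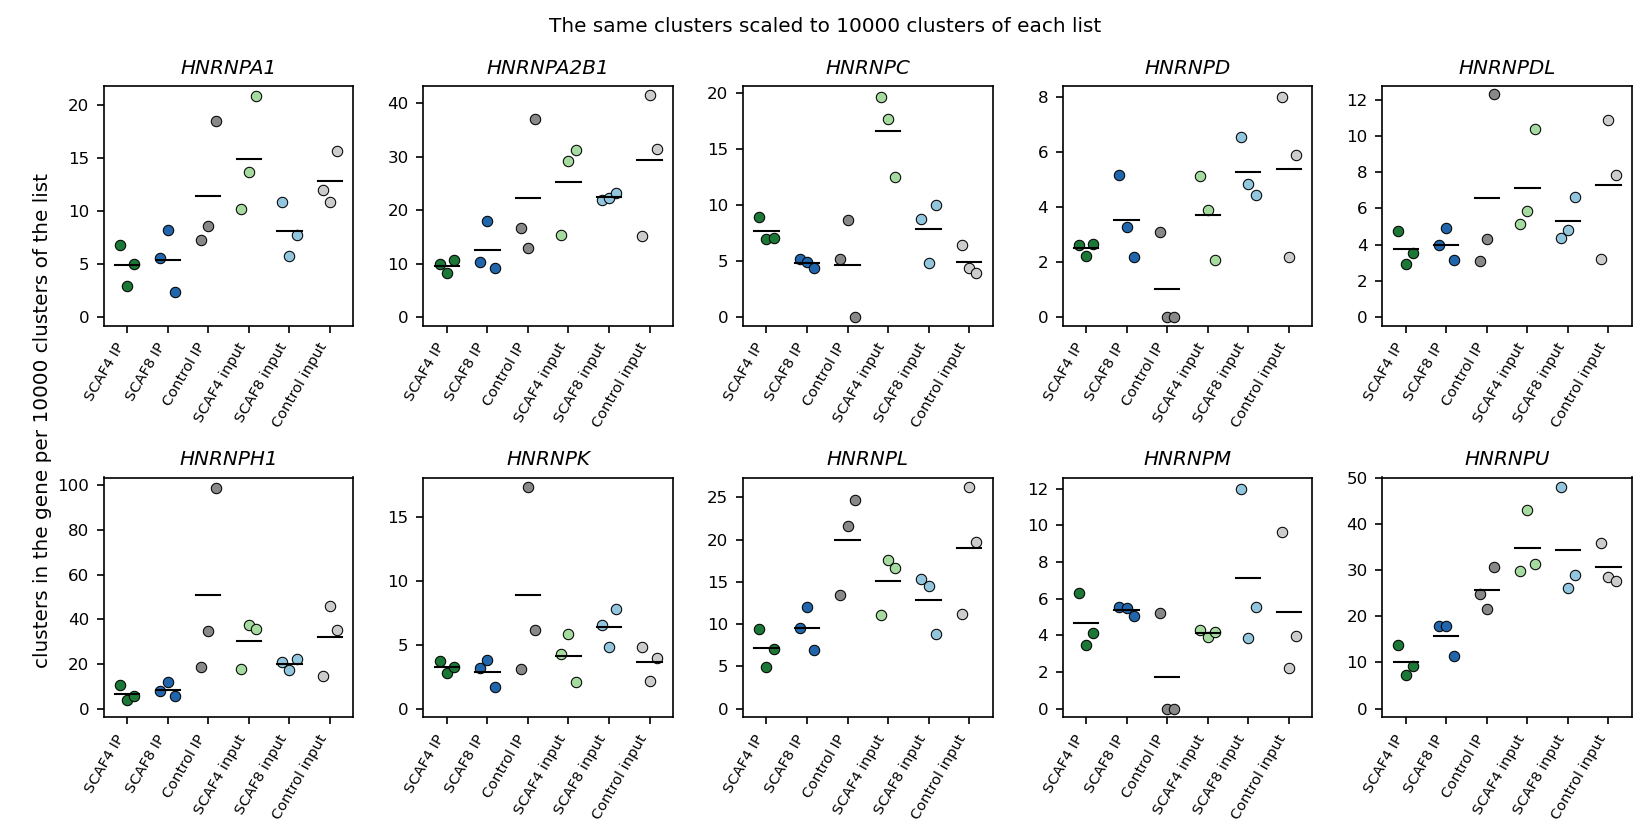
Clusters of each of the 10 hnRNP genes per 10000 clusters of the list (points, 3 lists per group; bars, group means; the vertical scale differs between genes). For HNRNPH1 and HNRNPU all 6 SCAF4 and SCAF8 IP lists lie below the 6 inputs of those lines, and control IP replicate 3 reaches 98.7 for HNRNPH1.

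The comparison with control IP, the FLAG IP of cells without a tagged protein, used the same 6 IP lists. The smallest p of 84 divisions is 0.0119 and the smallest adjusted value reached was 0.0982, so no gene of the 9389 was called by the exact test. At an unadjusted p under 0.05, 5 of the 10 genes were lower and 1 higher per 10000 clusters, beside 5.21% and 16.2% of all genes tested. HNRNPH1, HNRNPL and HNRNPU were lower in IP with no overlap between groups, which 3.73% of all genes tested were. None of the 10 was higher without overlap, against 13.3% of all genes. Mean values were 7.61 against 50.7 for HNRNPH1, 8.34 against 19.9 for HNRNPL and 12.9 against 25.8 for HNRNPU. HNRNPH1 varied most between the control IP lists, with 18.7, 34.6 and 98.7 per 10000 in replicates 1, 2 and 3. Only HNRNPC, HNRNPD and HNRNPM had a higher mean in IP (6.24 against 4.61, 3.02 against 1.04 and 5.00 against 1.73). In unscaled numbers the order was the reverse, and all 10 genes were higher in every IP list than in any control IP list, as were 24% of all genes tested. Each control IP list held fewer clusters than any SCAF4 or SCAF8 IP list, and the part of list length was not tested.

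Between the SCAF4 and SCAF8 IP lists, 3 against 3, the exact test cannot go below p = 0.1, which HNRNPC reached. HNRNPC had 8.95, 6.98 and 7.07 per 10000 clusters in SCAF4 IP and 5.16, 4.92 and 4.34 in SCAF8 IP, so that all SCAF4 IP values were higher. The means were 7.67 and 4.81, and 9% of all genes were higher in SCAF4 IP without overlap. In unscaled numbers HNRNPC overlapped between the proteins. The inputs of the SCAF4 line also had more HNRNPC, with 19.6, 17.6 and 12.5 per 10000 against 8.75, 4.83 and 9.99 in those of the SCAF8 line. No other gene of the 10 was separated in either direction, and the background for lower values in SCAF4 IP was 5.59%. HNRNPU had 10.1 in SCAF4 IP and 15.7 in SCAF8 IP on average, with overlap between lists.

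Clusters were placed by their midpoints in the MANE Select isoform of each gene, the agreed reference transcript, in all lists. In the 6 SCAF4 and SCAF8 IP lists, introns held 41.8% ± 4.75 of the clusters of the 10 genes (SD, n = 6), coding sequence 29.3% ± 4.97 and 3′ UTRs 16.5% ± 2.19. A further 10.4% ± 3.00 lay downstream of the end of the isoform but within the gene. In own inputs the means were 36.4% ± 3.18 in introns, 31.5% ± 3.89 in coding sequence and 21.4% ± 3.06 in 3′ UTRs. Intron shares of individual lists overlapped between IP (36.1% to 48.8%) and own inputs (30.1% to 38.5%). Control IP lists had 51.3% ± 7.68 in coding sequence and 28.1% ± 10.7 in introns (SD, n = 3).

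The share in introns was also higher than in other protein-coding genes for most kinds of list. In those genes 30.3% ± 3.79 of IP clusters lay in introns, 49.2% ± 5.38 in coding sequence and 13.5% ± 3.17 in 3′ UTRs (SD, n = 6). Intron means of the 10 genes and of the other genes were 36.4% and 31.0% in own inputs and 28.1% and 24.0% in control IP, while in inputs of the parental line the order was reversed, with 42.4% and 46.8%. None of these differences was tested. The intron share depended on the isoform chosen. Of the 493 intron clusters of the 10 genes in the IP lists, 238 (48.3%) lay in an exon of another annotated isoform. The share was 139 of 249 (55.8%) in own inputs and 22 of 48 (45.8%) in control IP. With the union of all annotated exons, introns held only 24.6% of the IP clusters of the 10 genes and 17.7% of those of own inputs.

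**Figure D3:**
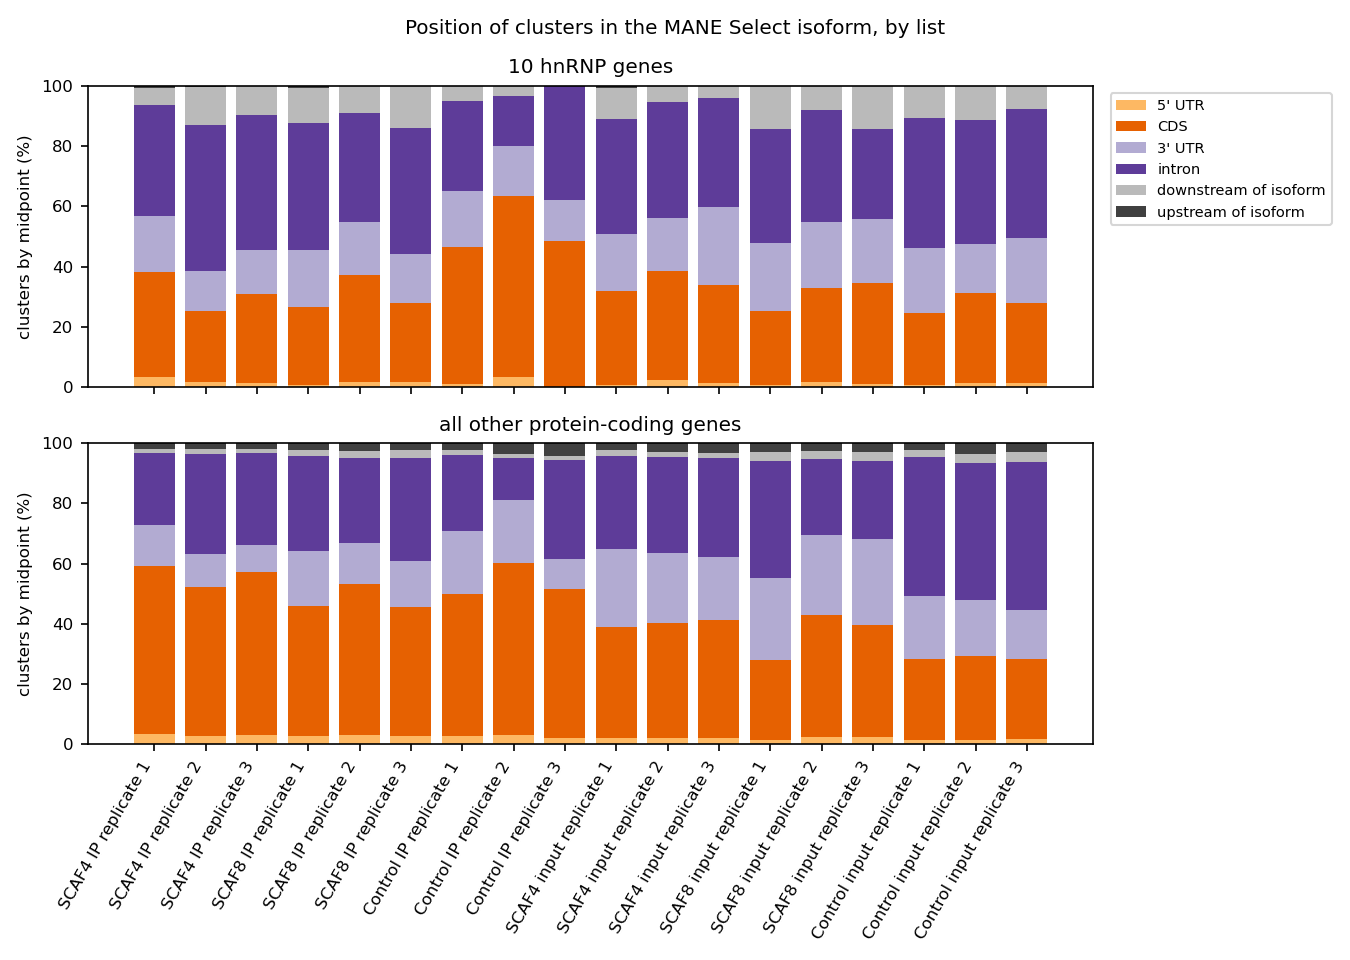
Share of clusters, in percent, by the position of the midpoint in the MANE Select isoform, for the 10 hnRNP genes (top) and all other protein-coding genes (bottom), with 1 bar per list. Among the hnRNP genes introns hold 36.1% to 48.8% of clusters in the SCAF4 and SCAF8 IP lists, and coding sequence holds at least 45.4% only in the control IP lists.

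The genes differed among themselves in where their clusters lay. HNRNPC was the most intronic, with 88 of 119 IP clusters in introns (73.9%), followed by HNRNPL with 100 of 144 (69.4%) and HNRNPH1 with 76 of 126 (60.3%). In own inputs the shares were 61.7%, 49.3% and 61.4%, so HNRNPH1 was alike in both kinds of list. HNRNPK was the least intronic with 16.4% in IP and 35 of its 55 IP clusters in coding sequence. HNRNPA1 had its largest group in the 3′ UTR, 40 of 85 IP clusters, and all 21 of its intron clusters in IP lay in exons of other isoforms. HNRNPU and HNRNPA2B1 were the genes with clusters past the end of the MANE isoform. HNRNPA2B1 had 53 there in IP, 21 in the 9 inputs and 0 in control IP, and HNRNPU had 72, 78 and 6.

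Clusters have lengths, and the share of nucleotides inside a cluster was measured for each part of each gene. Coding sequence was covered more in IP than in own inputs on average in all 10 genes. HNRNPH1 had the highest value, with 91.4% of its coding nucleotides inside clusters in IP (range over 6 lists 84.9% to 96.3%), 67.5% in own inputs (58.1% to 74.9%) and 67.7% in control IP (53.6% to 82.7%). HNRNPA2B1 had 86.5% (65.9% to 98.1%) in IP and 55.8% (40.7% to 79.3%) in own inputs, with overlap. HNRNPU had 81.9% (72.3% to 93.1%) and 46.4% (34.0% to 57.5%). For HNRNPA1, HNRNPD, HNRNPH1, HNRNPK, HNRNPM and HNRNPU the IP and own input lists did not overlap in this measure. For the other genes they did, and no share over all genes is given here. With the inputs of the parental line included, HNRNPA1 and HNRNPH1 overlapped as well. Their highest inputs had 59.6% and 87.5%, beside lowest IP values of 55.7% and 84.9%. The lowest coding coverage in IP was that of HNRNPM (43.4%, against 13.9% in own inputs) and HNRNPD (43.8%, against 16.4%). These covered shares are not scaled and rise with the number of clusters in a list.

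3′ UTRs showed less contrast between IP and own inputs. HNRNPK (12.8% in IP and 13.1% in own inputs), HNRNPC (6.89% and 5.37%), HNRNPU (35.2% and 36.0%) and HNRNPH1 (62.4% and 70.0%) had close means with wide ranges. HNRNPM had 89.5% of its 3′ UTR inside clusters in IP and 73.4% in own inputs, where single lists ran from 0 to 96.2%, and 0 in each control IP list. HNRNPDL (29.0% and 11.1%) and HNRNPL (41.9% and 17.8%) were among the genes with a higher mean in IP. At the other end of the transcript, the 5′ UTR of HNRNPU was covered to 81.8% in IP (35.6% to 100%) and to 6.78% in own inputs (0 to 40.7%), and that of HNRNPD to 40.5% (23% to 55.0%) and 7.40% (0 to 44.4%). The 5′ UTR of HNRNPA2B1 was covered alike, to 86.0% and 88.4%. Covered shares of UTRs are likewise not scaled and rise with the number of clusters in a list, and no share over all genes is given here. No list had a cluster in the 5′ UTR of HNRNPL or HNRNPM. These measure only 20 nt and 24 nt, against 236 nt in HNRNPU and 313 nt in HNRNPD, and the part of their size was not tested.

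Introns were covered most in HNRNPH1, to 55.5% in IP (44.1% to 67.9%), 37.9% in own inputs (29.1% to 49.8%) and 22.4% in control IP (8.19% to 36.0%). HNRNPL introns had 33.7% in IP (17.9% to 47.2%) and 8.62% in own inputs (4.95% to 13.6%), and HNRNPDL introns 26.0% (16.6% to 49.8%) and 6.83% (4.68% to 8.29%), in both cases without overlap. This measure too is not scaled to list length, and no share over all genes is given here. Introns of HNRNPA1 were covered to 33.7% (16.0% to 58.0%) and 11.6% (5.19% to 17.4%). HNRNPC, HNRNPD, HNRNPK and HNRNPM had means of 2.97% to 4.60% over the 6 IP lists.

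**Figure D4:**
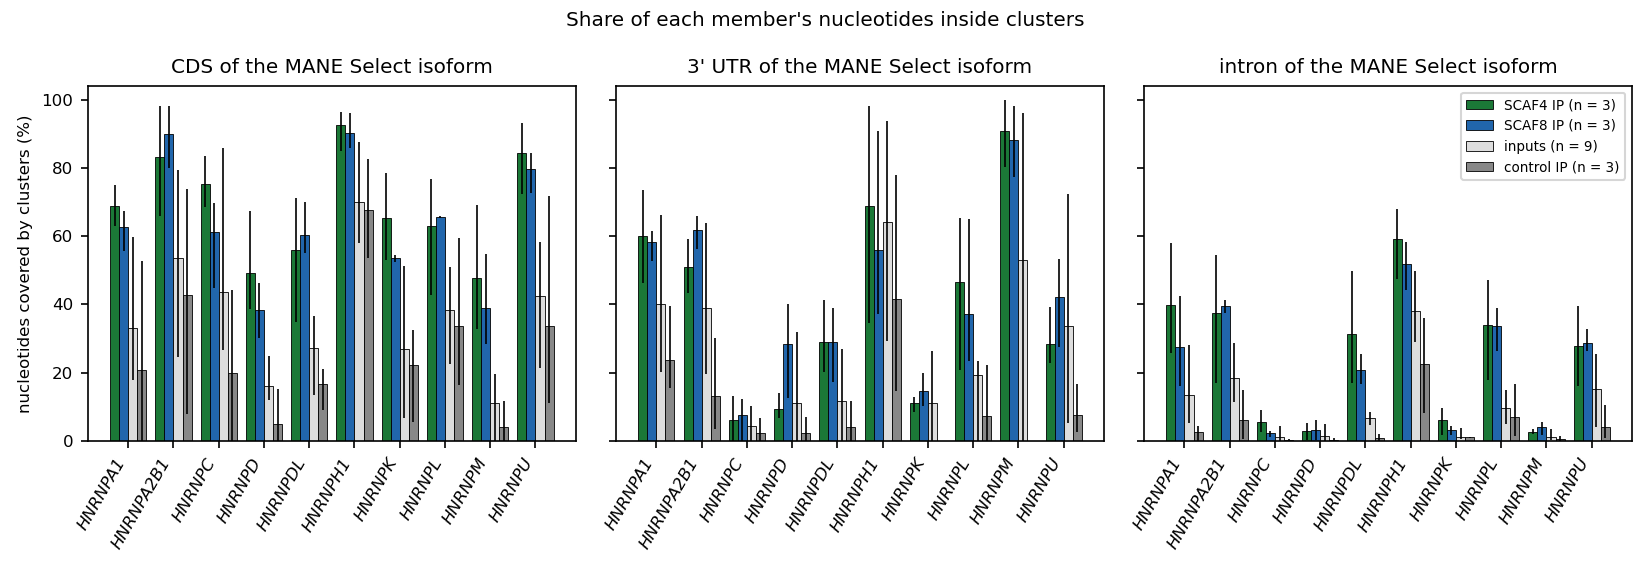
Percent of the coding, 3′ UTR and intron nucleotides of each hnRNP gene that lie inside clusters (bars, mean over lists; lines, lowest to highest list; inputs are all 9). Coding sequence has higher means in SCAF4 and SCAF8 IP than in inputs for all 10 genes, whereas the 3′ UTR ranges of IP and inputs overlap for all 10, and introns are covered to over 50% on average only in HNRNPH1.

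At the level of single features, the MANE isoforms of the 10 genes have 122 exons and 112 introns. All 6 IP lists touched 60 exons, all 9 inputs 21 and all 3 control IP lists 17. In all 18 lists at least 50% of the length was covered for 8 exons (HNRNPDL exon 2, HNRNPH1 exons 2, 3, 7 and 8, HNRNPK exon 4 and HNRNPL exons 3 and 5) and for 2 introns, HNRNPH1 introns 6 and 7. HNRNPH1 exon 7 (chr5:179617989-179618060) was covered to 100% in every list. These features were thus also found in pull-downs without a tagged protein and in inputs, though not always covered to the same extent. HNRNPDL exon 2, for example, averaged 80.5% in control IP and 100% in both SCAF4 IP and SCAF8 IP.

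No list had a cluster on 15 exons, 6 of them in HNRNPM. These exons were short, with a median of 63 nt against 129 nt for the 107 others, and held less T, with a median of 19.6% against 24.4%. A cluster needs T-to-C changes, so both properties bear on whether a cluster can be called, and their part was not tested.

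Some features were touched by at least 2 SCAF4 and at least 2 SCAF8 IP lists and by no input or control IP list. They were 5 exons, namely exon 7 of HNRNPD, exon 5 of HNRNPDL, exon 11 of HNRNPL and exons 6 and 14 of HNRNPM, and 4 introns, namely intron 6 of HNRNPD, introns 5 and 7 of HNRNPDL and intron 11 of HNRNPK. Input and control IP lists were shorter than the IP lists, and the part of list length was not tested. No share over the features of other genes is given here. HNRNPD exon 7 (chr4:82356537-82356683) had a median coverage of 92.5% over the 6 IP lists, with 0 in 1 of them. It lies within the region printed above as HNRNPD intron 6. HNRNPL exon 11 (chr19:38837594-38837651) had a median of 91.4% and was found in 2 lists of each protein, as was HNRNPM exon 6 (chr19:8465324-8465515) with a median of 85.2%. HNRNPDL intron 7 (chr4:82424884-82426036) was touched by all 6 IP lists and covered to 10.7% to 44%.

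Larger contrasts within introns were seen where inputs had some clusters as well. HNRNPL intron 6 (chr19:38840560-38843841, 3282 nt) was covered to 37.4% to 71.4% in the 6 IP lists with a median of 55.8%, to 4.30% to 23.9% in the 9 inputs with a median of 15.0%, and to 2.74% to 24.7% in control IP. IP lists thus lay wholly above the others in this unscaled measure. HNRNPA2B1 intron 1 (chr7:26197733-26200571) had 20.1% to 66.9% in IP and 8.98% to 38.8% in the inputs, with overlap. HNRNPA1 intron 6 (chr12:54282666-54282799, 134 nt) was fully covered in the median IP list and to at most 1.49% in any input. It was missed by 1 SCAF8 IP list.

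**Figure D5:**
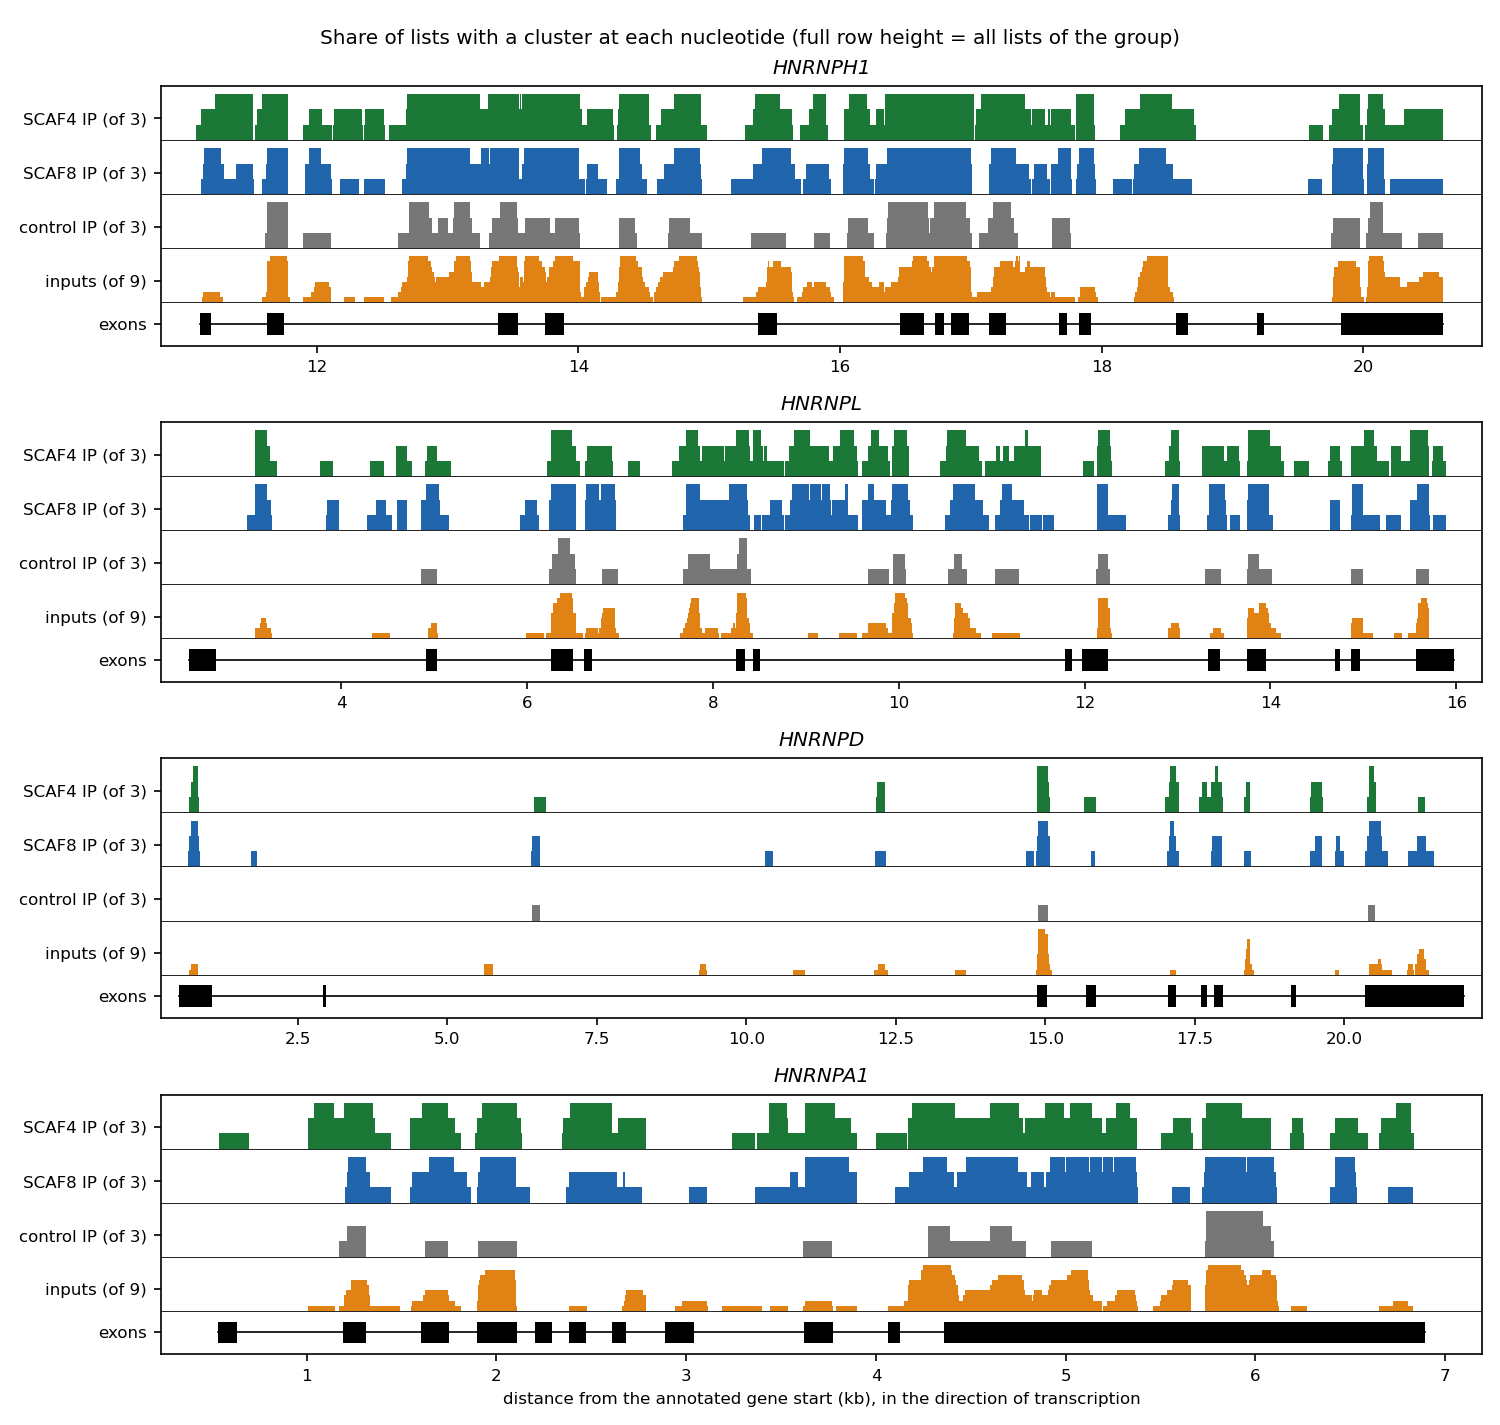
Share of lists with a cluster at each nucleotide along HNRNPH1, HNRNPL, HNRNPD and HNRNPA1, from the annotated gene start in the direction of transcription (kb), for SCAF4 IP, SCAF8 IP, control IP (3 lists each) and the 9 inputs; the full height of a row stands for all lists of the group, and black boxes are MANE Select exons. HNRNPH1 exons 2, 3, 7 and 8 have peaks in all 4 rows, whereas intron 6 of HNRNPL, the widest gap between its exons, is filled mainly in the SCAF4 and SCAF8 IP rows.

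Clusters were also compared with splice sites, since a cluster is a run of overlapping reads and can span an exon boundary. In the IP lists 36.0% of the clusters in the 10 genes crossed a splice site of the MANE isoform (34.0% to 41.0% over 6 lists), against 32.3% in own inputs (29.6% to 35.2%) and 45.6% on average in control IP. An exon was covered from end to end by 17.1% of IP clusters (13% to 22.8%) and by 8.90% of own input clusters (5.31% to 12.5%). These ranges did not overlap, but replicate 1 of the parental inputs reached 13.2%, above the lowest IP list. Control IP had a share like that of IP, 16.6% (10% to 23.7%). No such share is given here for other genes, and the part of list length was not tested. Median cluster length was similar, 170 nt in IP and 163 nt in own inputs. Spliced reads cannot be told apart from reads of unspliced RNA in these lists.

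Regions found in at least 2 of 3 IP lists were then followed through removal steps of the kind the study used, in which regions also present in inputs or control IP are set aside. SCAF4 IP had 174 such regions in the 10 genes and SCAF8 IP 158. Clusters of at most 1 input overlapped 47 and 34 of them, and 42 and 30 also had no control IP cluster. Without any input or control IP cluster there were 29 and 16. HNRNPC held 10 of the 42 SCAF4 regions and HNRNPL and HNRNPU held 6 and 5 of the 30 SCAF8 regions, while HNRNPH1 held 2 and 0. The last step sets aside genes in which merged input regions number 1 or more in 10 kb, counted over the gene and 2 kb on either side. All 10 genes exceeded that density, from 2.90 per 10 kb in HNRNPM to 16.5 in HNRNPA1, against 34.3% of all genes tested, so that no region of any of the 10 genes was left.

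The 119 regions shared by both proteins were placed by their midpoints. Of these, 48 lay in introns, 41 in coding sequence, 17 in 3′ UTRs, 2 in 5′ UTRs and 11 outside the MANE isoform. All 9 inputs had a cluster in 28 of them, at least 5 inputs in 67 and all 3 control IP lists in 16. HNRNPH1 had 9 of its 13 shared regions in all 9 inputs, and HNRNPM had none of 8. HNRNPU had the most shared regions with 25, of which 6 were in all 9 inputs, followed by HNRNPA2B1 with 20 and HNRNPL with 15.

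Some of these clusters could belong to reads of near-identical copies. The annotation holds 74 pseudogenes named for HNRNPA1, of which 8 held clusters, 92 in all, beside 177 in HNRNPA1 itself. Pseudogenes of HNRNPK and HNRNPL held 42 clusters each and those of HNRNPC 39, and values of these genes are uncertain to that extent. Another annotated gene on the same strand covered all 177 HNRNPA1 clusters, and 99 of the 269 HNRNPL clusters also lay in such a gene, so they were counted in both.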

How the data were processed

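PAR-CLIP reads of 36 libraries were processed by the authors, with bcl2fastq 1.8, cutadapt and Trim Galore, Bowtie2 2.2.9 on GRCh38 and Picard for duplicates. They merged both fractions and called clusters with PARalyzer (more than 10 reads, at least 8 T-to-C conversions). The deposited lists hold positions, strand and a score without a name, used here only to rank clusters, and precede the removal of input and control clusters. No counts of reads exist in them, so depth and counting error are unknown. Clusters were assigned by midpoint to GENCODE 44 gene bodies. Numbers per 10000 clusters were compared by exact permutation of lists over 9389 genes with Benjamini-Hochberg adjustment, after a test on simulated data. Inputs were taken from the extract of the IP. Deviations of IP and own input of the same number correlated at 0.0271 to 0.324 (median 0.120). Those of different number correlated at −0.240 to 0.140 (median −0.0696). The permutation of lists did not use this pairing, and paired sign flips were an alternative. Regions were merged with 1 nt overlap, and the sequence of 1 region is not reported here. Members and lists were chosen with earlier results of these data known, and all 10 members are named. The software was scipy 1.17.1, matplotlib 3.10.9, pandas 2.3.3 and numpy 2.4.6 under Python 3.11.15. Alternatives were the log2 scale (pseudocount 1), covered nucleotides, a score limit, all inputs, gene assignment, gene filter, replicates left out, isoform models and removal rules.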

Additional observations from a re-analysis of the deposited data

Results flagged for a closer look

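Per 10000 clusters, the highest of the 6 IP lists lay far from the other 5 for 2 of the 10 genes. HNRNPA2B1 had 18 in SCAF8 IP replicate 2, where the other IP lists had 8.27 to 10.6. HNRNPD had 5.16 in SCAF8 IP replicate 1, where the others had 2.17 to 3.28. The gap was judged by Dixon's 95% limit in 20 groups of lists, and chance alone marks about 1 in 20 groups. SCAF8 IP replicate 2 was the shortest of the IP lists, with 18287 clusters, and the part of list length in these values was not tested.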

How the results depend on the processing

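Differences per 10000 clusters between IP and own inputs kept their direction for all 10 genes on the log2 scale and with covered nucleotides, all inputs, another gene assignment or filter. Scaling decided the direction. In unscaled clusters per list, an alternative chosen after seeing the data, all 10 differences were positive: HNRNPA1 5.50, HNRNPA2B1 14.2, HNRNPC 9.83, HNRNPD 5, HNRNPDL 6.67, HNRNPH1 2, HNRNPK 4.67, HNRNPL 12.8, HNRNPM 10.2 and HNRNPU 8.83, so 0 genes had a lower mean and 0 were called lower. HNRNPM, the closest, gave −1.24 to 0.162 without 1 replicate and turned without replicate 1, and it turned with SCAF4 alone (0.527) and with intron clusters alone (0.108), and HNRNPK turned with intron clusters alone (0.184). The 3 genes called lower became 5 with all 9 inputs and 0 when clusters under the median score of their list were left out, where no gene of the 9389 was called. They were 0 with the replicate block, 0 without any 1 replicate and 0 with either protein alone, where no gene at all passed the threshold, and 0 with intron clusters alone. HNRNPA2B1 also missed the threshold when genes with a cluster in at least 1 list were tested (adjusted p = 0.0577, exact permutation test), and with exon clusters alone HNRNPA2B1 and HNRNPU were called (adjusted exact p = 0.0335 each) but not HNRNPH1 (0.0565).

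Against control IP, unscaled differences turned for HNRNPA1 (10.2), HNRNPA2B1 (24.5), HNRNPDL (9.5), HNRNPH1 (7), HNRNPK (6.5), HNRNPL (16.7) and HNRNPU (25.7), with 0 genes lower and 10 higher without overlap. Leaving out a replicate gave 3 to 5 genes lower and 0 to 2 higher, and HNRNPC (−0.411 to 3.79) and HNRNPDL (−4.70 to 0.426) turned without replicate 3. Between SCAF4 and SCAF8 IP, leaving out a replicate gave 2 to 5 genes without overlap and unscaled numbers 0. Unscaled differences turned for HNRNPA1 (2.33), HNRNPA2B1 (1) and HNRNPDL (1.67) and were 0 for HNRNPM. Over the fits without 1 replicate, HNRNPA1 ran from −1.99 to 1.94, HNRNPA2B1 from −5.05 to 0.563, HNRNPDL from −0.790 to 0.585, HNRNPH1 from −3.97 to 1.32 and HNRNPL from −3.56 to 0.0147, each turned without replicate 2, and HNRNPK from −0.280 to 1.03, turned without replicate 3.

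Regions before removal fell from 174 to 107 in 3 of 3 SCAF4 IP lists and 89 with the score limit, and from 158 to 105 and 93 for SCAF8. Those left by overlap fell from 42 to 10 and 19, and from 30 to 7 and 14. They were 14 to 36 for SCAF4 and 10 to 21 for SCAF8 without 1 replicate, and 16 for SCAF8 with removal by any input. Without removal by input density 42 and 30 were left.

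The intron share in IP (41.8%) was 23.4% with the isoform of largest summed exon length, 24.6% with the union of exons and 48.0% of covered nucleotides. In own inputs it was 17.7%, 17.7% and 39.9%, and 46.1% with the score limit, and in control IP 7.59% and 14.6% with the first 2. For HNRNPA2B1, HNRNPD, HNRNPH1, HNRNPL and HNRNPU the isoform of largest summed exon length is a retained-intron transcript. For the other changes the cause was not tested.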
